A study of Caenorhabditis elegans with 4 samples.

Results

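The regions described here are the peaks called for NHR-76, a nuclear hormone receptor of the nematode Caenorhabditis elegans, that lie on chromosome II. They were taken as every line of the combined peak list placed on II, with no selection on strength. There were 568 such peaks of 3635 in the genome, 15.6% of that list. The replicate 1 list held 266 peaks on II of 1562, and the replicate 2 list 571 of 3676.

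The study applied chromatin immunoprecipitation followed by sequencing (ChIP-seq) to L4 larvae (hermaphrodites) of strain OP203, raised at 20 °C and fixed in 2% formaldehyde. All worms carried the unc-119(ed3) mutation and the integrated transgene wgIs203, made by bombardment, which supplies NHR-76 joined to a tag that includes EGFP, together with an unc-119 rescue. The DNA bound by the fusion was recovered with an antibody against GFP. The 4 samples were 2 ChIP samples and 2 input samples, and peak lists of the 2 ChIP samples were analysed. The labels place the fusion in the normal expression pattern of nhr-76 and list no mutation of the gene itself. Lysates came from whole worms, so a site bound in one tissue cannot be told apart from one bound in many. No label says whether the replicates were grown as separate cultures.

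Nuclear hormone receptors are transcription factors that bind DNA through a pair of zinc fingers and, in many family members, respond to small lipophilic ligands. The family is greatly expanded in C. elegans. NHR-76 is known in this worm as an intestinal receptor in the pathway by which serotonin promotes the use of stored fat. Chromosome II is one of the autosomes. C. elegans autosomes have a central region rich in conserved genes, flanked by arms that recombine more and hold more repeats.

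A peak is a stretch of the genome called as enriched, and its q-value, given by the authors' peak caller, is a false discovery measure. Peaks of smaller q-value are called stronger here, which refers to the q-value alone and not to an amount of binding. Coordinates are those of build WS180. No gene annotation or sequence of that build was used here, so peaks are given by position and are not assigned to genes. The lists hold no read counts, so the depth of each library is unknown. Every value of a peak comes from a single list and has no error of its own.

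The strongest sites on II were shared by both replicates and lay mostly in the middle of the chromosome. The 15 combined peaks of smallest q-value that overlapped a peak in each replicate were also the 15 smallest of all peaks on II. Of these, 10 were in the central of 3 equal segments of the span between the outermost peaks, 4 in the high-coordinate segment and 1 in the low-coordinate segment. Their widths ran from 393 to 3588 bp, and 10 of them were at least 1000 bp wide. For comparison, 24 of the 568 peaks on II (4.23%) were that wide, and these 24 made up 19.6% of the sequence covered.

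The first-ranked site lay at 10541896 to 10545483 and was 3588 bp wide, which also made it the widest on II. Its q-value was 6.48e-79 in replicate 2. In replicate 1 it was covered by 3 peaks, of 2348, 407 and 207 bp, with q-values of 2.30e-39, 6.61e-05 and 0.000211. The strongest and widest of these ran from 10541910 to 10544257, in the low-coordinate part of the site. The second-ranked site, at 6345707 to 6349084, was almost as wide but had the same outline in both replicates. It was a single peak of 3363 bp in replicate 1 (q-value 6.43e-39) and a single peak of 3378 bp in replicate 2 (q-value 2.45e-62). The centres of these 2 peaks were 3.5 bp apart.

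The third site, at 5543300 to 5544658, was called at 3.17e-29 in replicate 1 and at 3.07e-54 in replicate 2. The fourth, at 9616999 to 9618299, was called at 2.28e-21 and 1.82e-46. Both were single peaks in each replicate, and both kept ranks among the first 7 on II in replicate 1. The fifth, at 10563305 to 10563731, differed from these in shape. It was only 427 bp wide, yet its q-value was 3.22e-31 in replicate 1, where it had rank 3 on II, and 8.67e-45 in replicate 2. The other strong sites under 500 bp lay at 4089190 to 4089582 and at 9686625 to 9687098. The former had q-values of 1.08e-16 and 2.20e-28 in replicates 1 and 2, and was the only one of the 15 in the low-coordinate segment. The latter had 4.69e-20 and 3.21e-28.

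The remaining single-peak sites were at 5844548 to 5845283 (736 bp), 8745746 to 8748047 (2302 bp), 8743115 to 8745356 (2242 bp) and 11974346 to 11975294 (949 bp). They ranked 5, 6, 9 and 8 on II in replicate 1. Their replicate 1 q-values lay between 1.89e-25 and 1.08e-20. Those ranked 6 and 9 were neighbours in a single group of peaks described further on.

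In 5 of the 15 sites, replicate 1 had 2 or 3 separate peaks in place of the single peak of replicate 2. Besides the first-ranked site these were at 9282579 to 9285222, 8015198 to 8017156, 10550533 to 10552640 and 6887516 to 6888589. The best pieces of these 4 ranked 17, 13, 41 and 54 on II in replicate 1. The last is the clearest case. It spanned 1074 bp at a q-value of 2.39e-29 in replicate 2. In replicate 1 it appeared as peaks of 405 and 395 bp with q-values of 5.27e-08 and 8.55e-10. A piece and a whole site are not the same stretch, so these q-values cannot be compared directly. Over all of II, 9 combined peaks overlapped 2 or 3 replicate 1 peaks, 20 pieces in all, and these 9 had ranks between 1 and 37.

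**Figure D1:**
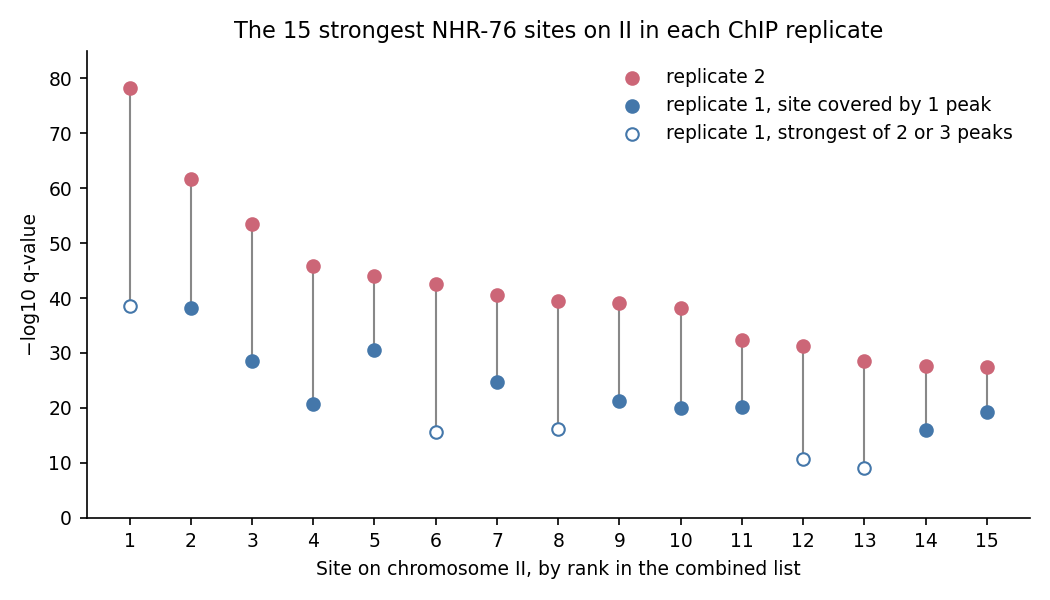
Each column is one of the 15 strongest sites on II shared by both replicates, in the order of the combined list, and the vertical axis is −log10 of the q-value (larger is stronger). Red points are replicate 2; filled blue points are sites that are 1 peak in replicate 1, and open blue points give the strongest of 2 or 3 pieces. Replicate 2 is above replicate 1 at each site, and sites 6, 8, 12 and 13, which are split, are among those lowest in replicate 1. The sites were chosen by combined q-value, and 11 of these 15 combined peaks are identical to replicate 2 peaks. The choice may therefore favour replicate 2.

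Some of the strong sites lay close to each other. Those ranked 1, 5 and 12 were all within 21.8 kb, between 10541896 and 10563731. In the strongest decile of combined peaks on II, 43.9% had a neighbour within 1000 bp. Beginning with the first-ranked site, 5 combined peaks followed each other at gaps of at most 1000 bp up to 10552640 and covered 83.4% of those 10745 bp. The third of the 5, at 10547593 to 10549676, was 2084 bp wide and ranked 20 on II. Replicate 1 had 8 peaks in this group and overlapped 4 of the 5 combined peaks. The weakest of the 5, at 10549894 to 10550242 with a q-value of 2.46e-05, had no counterpart in replicate 1.

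When II was laid out in windows of 50000 bp, the one with the most covered sequence ran from 5300001 to 5350000. It held 12 combined peaks covering 9016 bp, or 18.0%. None of the 12 was among the 15 strongest. The best of them were at 5336462 to 5337958 and 5339167 to 5341447, with q-values of 3.77e-26 and 1.39e-25, ranked 17 and 19. Replicate 1 found 6 peaks there covering 3314 bp, which gave the window rank 6 on II in that replicate. A combined peak of 1200 bp in this window, at 5332748 to 5333947, had a q-value of 1.44e-10 and no replicate 1 overlap.

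The next window, from 10500001 to 10550000, holds the first-ranked site. It had 8 combined peaks covering 7515 bp, and it was the most covered window on II in replicate 1, with 7 peaks and 5630 bp. The third window, from 9600001 to 9650000, had 10 combined peaks covering 6555 bp and 7 replicate 1 peaks covering 4265 bp. It had rank 3 in replicate 1. Its strongest peak was the fourth-ranked site. In the median window of II, combined peaks covered 318 bp, and 84 of 306 windows (27.5%) held none.

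The largest groups, with gaps of at most 1000 bp, had 6 combined peaks each. One, at 8739702 to 8748047, had peaks of 288 to 2302 bp that covered 77.7% of it. The widest of these, of 2242 and 2302 bp, were the sites ranked 10 and 9, and the other 4 were between 288 and 832 bp. Replicate 1 overlapped 4 of its 6 peaks. The other, at 9600072 to 9604443, had peaks of 5 to 521 bp covering 41.7% of it, and replicate 1 overlapped 2 of the 6. These groups thus differed in density although they had the same number of peaks. In all, 144 of the 568 combined peaks (25.4%, 95% CI 21.9 to 29.1) had a neighbour within 1000 bp, and 16 groups held 3 or more.

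Peaks with a neighbour had a larger median width and a smaller median q-value than isolated ones, as a description with no test. Their medians were 388.5 bp and 3.25e-07. The other 424 peaks had medians of 270 bp and 5.28e-06. No pair of neighbouring combined peaks on II was closer than 202 bp. The share with a neighbour on II differed by 1.52 percentage points from the 23.8% elsewhere in the genome (two-sided Fisher's exact test with an adjusted p of 0.599).

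Peaks were sparse at the low-coordinate end of II, more so than on the other autosomes pooled. The span between the outermost peaks, 22391 to 15266760, was cut into 3 equal segments. The low-coordinate segment held 115 combined peaks (20.2%, 95% CI 17.1 to 23.8), the central one 225 (39.6%, 95% CI 35.7 to 43.7) and the high-coordinate one 228 (40.1%, 95% CI 36.2 to 44.2). The density was 22.6 peaks per Mb in the first and 44.3 and 44.9 per Mb in the others. In replicate 1 the counts were 55, 105 and 106, and in replicate 2 they were 115, 226 and 230. The high-coordinate segment thus had 1.98 times as many combined peaks as the low-coordinate segment, and 1.93 times as many in replicate 1.

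**Figure D2:**
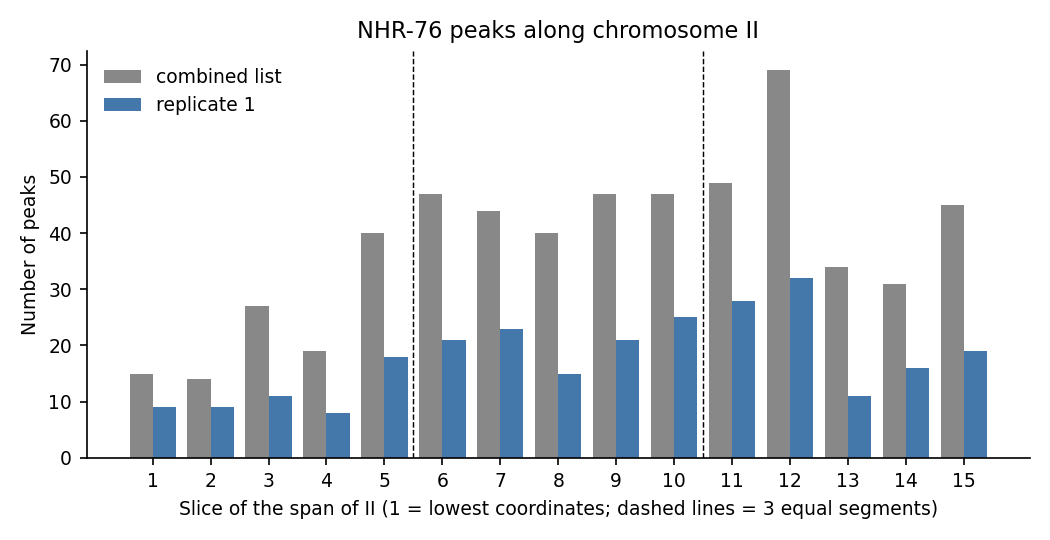
Number of peaks in each of 15 equal slices of the span of II (about 1016 kb each), numbered from the low-coordinate end; grey bars are the combined list and blue bars replicate 1, and dashed lines divide the 3 equal segments. Slices 1 to 4 hold 14 to 27 combined and 8 to 11 replicate 1 peaks, and slices 5 to 15 hold 31 to 69 and 11 to 32.

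The balance between the outer segments was compared with other chromosomes by a test chosen after the uneven counts had been seen. Of the 343 combined peaks in the outer segments of II, 33.5% (95% CI 28.7 to 38.7) were in the low-coordinate one. On the other autosomes together it was 768 of 1481, or 51.9% (Fisher's exact test, two-sided, odds ratio 0.468, adjusted p = 4.73e-09 over 6 tests). In replicate 1 alone it was 55 of 161 on II (34.2%) and 315 of 616 on the other autosomes (51.1%), with an adjusted p of 0.00079 in the same exact test. Peaks cluster, and the test treats them as independent, so its p-values are too small. Peaks are also not replicates of a chromosome, and the test sets II alone against a pool. Shares within that pool ran from 45.0% on III to 57.3% on IV, so 51.9% averages skews in opposite directions. Counting fewer peaks reduces the clustering but leaves this limit. With only 1 peak counted per group of neighbours, the shares were 35.2% and 51.9% (adjusted p = 1.71e-06, same exact test). In replicate 1 counted in that way they were 37.2% and 50.9% (adjusted p = 0.0227, same exact test).

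Against single chromosomes the difference was not equally clear. These pairs too were tested after the uneven counts had been seen, with peaks treated as independent, so their p-values are too small. In the combined list the share on II was below that of each of the other 5, which ran from 42.7% on X to 57.3% on IV, with adjusted p-values of at most 0.0123 (Fisher's exact test, 5 pairs). In replicate 1 the difference from IV and V passed (adjusted p = 0.000261 and 4.73e-05, same exact test). That from I, III and X did not, with adjusted p-values of 0.103, 0.187 and 0.310 and shares of 46.8%, 42.2% and 39.7%, compared with 34.2% on II. The density of genes along these chromosomes was not analysed here.

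**Figure D3:**
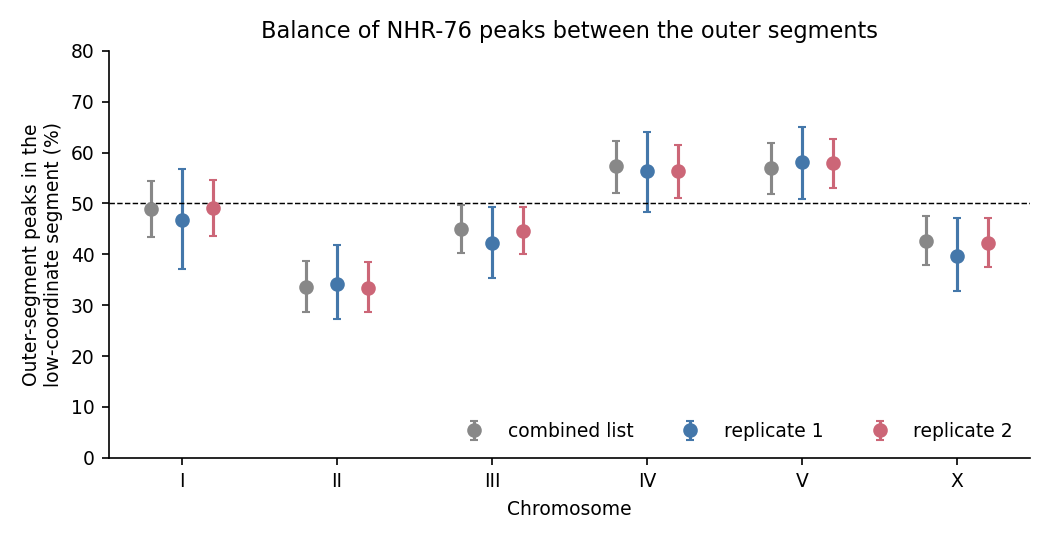
For each chromosome, the percentage of peaks in the outer segments of its span that lie in the low-coordinate segment, with 95% Wilson intervals; grey is the combined list, blue replicate 1 and red replicate 2, and the dashed line marks an even split. II is lowest in each list, at 33.5%, 34.2% and 33.3%, while its replicate 1 interval overlaps those of I, III and X.

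The empty stretches lay at the same end. The 3 longest stretches of II without a combined peak were from 411217 to 848477 (437.3 kb), from 1820243 to 2204370 (384.1 kb) and from 1501127 to 1819962 (318.8 kb). None of them held a peak of replicate 1 or replicate 2. The 2 last named were separated by 1 peak, at 1819963 to 1820242, so 703.2 kb held a single site of 280 bp. That site was present in each replicate and had a combined q-value of 1.79e-08, rank 161 of 568. The median gap between neighbouring combined peaks on II was 10.8 kb. Of the 50000 bp windows, 44.1% held no combined peak in the low-coordinate segment, 20.6% in the central and 17.6% in the high-coordinate segment.

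The central segment held more of the strongest peaks than either outer segment, as a description with no test. The central segment held 54.4% of the strongest decile of combined peaks on II and 44.6% of the weakest, with values between 28.1% and 47.4% in the deciles between. Of the 50 strongest, 27 were central, 20 in the high-coordinate segment and 3 in the low-coordinate segment, and in replicate 1 these counts were 26, 21 and 3. Of the 100 strongest, 49 were central in the combined list and 47 in replicate 1. Median peak widths were 271, 316 and 297.5 bp in the low-coordinate, central and high-coordinate segments. The high-coordinate segment, with 228 peaks to the 225 of the central one, had 83.0 kb of covered sequence compared with 98.3 kb. The share of all combined peaks of II in the central segment was 39.6%, beside 41.3% on the other autosomes, a difference that did not pass (Fisher's exact test, adjusted p = 0.599).

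The comparison of the 2 replicates asked which sites on II were found in both. Of the 266 replicate 1 peaks on II, 256 overlapped a replicate 2 peak by at least 1 bp (96.2%, 95% CI 93.2 to 97.9). In the other direction 245 of 571 replicate 2 peaks did (42.9%, 95% CI 38.9 to 47.0), the replicate 2 list being longer. Over the whole genome the 2 shares were similar, at 96.5% and 40.0%. With both lists limited to their 266 strongest peaks on II, the shares were 77.8% and 73.7%. The 10 strongest peaks of each replicate had 8 sites in common, and the 50 strongest had 43, counted over replicate 1.

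Weaker peaks were less often held by replicate 1, as a description within one list. All 57 combined peaks of the strongest decile on II overlapped replicate 1 (95% CI 93.7 to 100). The share was 86.0% in the second decile, 61.4% in the fourth, where q-values lay between 4.48e-08 and 5.70e-07, and 31.6% in the fifth. It was 3.57% in the weakest (2 of 56, 95% CI 0.985 to 12.1). The widths fell along with it, from a median of 707 bp in the strongest decile to 203 bp in the weakest, and across the 568 peaks Spearman's rho of width and q-value was -0.67. This rho is a description across peaks of one list. Among replicate 1 peaks, 84.6% or more of each decile overlapped replicate 2 and all 26 of the weakest decile did.

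**Figure D4:**
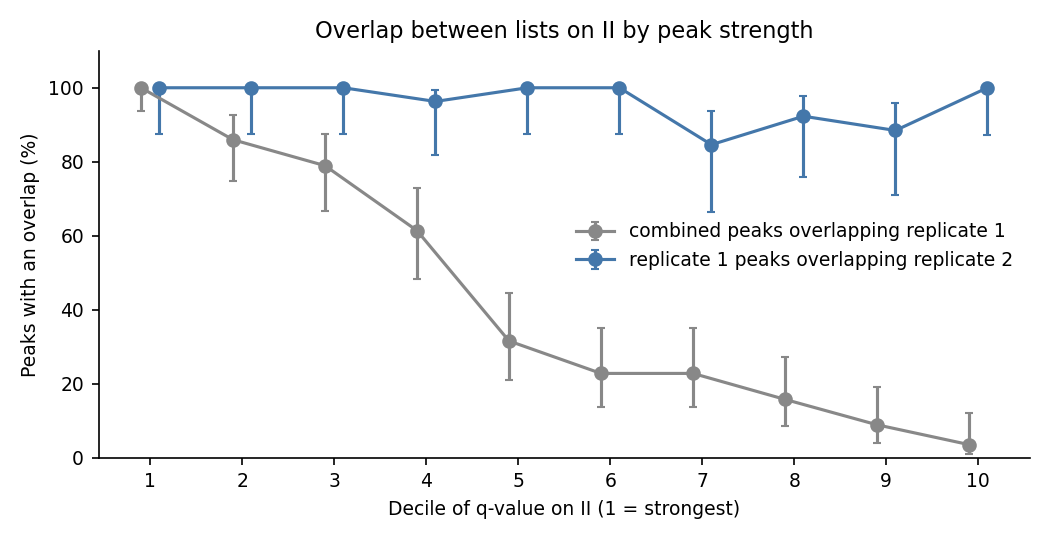
Percentage of peaks on II that overlap the other list, by decile of q-value within II (1 is strongest), with 95% Wilson intervals; grey is combined peaks overlapping replicate 1 and blue is replicate 1 peaks overlapping replicate 2. Grey points drop from 100% to 3.57% and blue points stay at 84.6% or above.

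The share of combined peaks on II found in replicate 1, 246 of 568 (43.3%, 95% CI 39.3 to 47.4), was not shown to differ from that on the other chromosomes. It was 1223 of 3067 there (39.9%), and a two-sided Fisher's exact test gave an adjusted p of 0.433. On II the share was 42.7% in the central segment and 43.7% in the outer segments (adjusted p = 0.863, same exact test). Within the sparse low-coordinate segment 52 of 115 peaks were found in replicate 1, or 45.2% (95% CI 36.4 to 54.3).

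Replicate 2 gave the shared sites smaller q-values and wider outlines. There were 236 pairs on II that overlapped one to one. The median log10 q-value was -5.26 in replicate 1 and -8.65 in replicate 2, and the q-value was smaller in replicate 2 in 228 pairs (96.6%, 95% CI 93.4 to 98.3). A pair needs a peak in both lists, whose largest q-values on II were 0.000238 in replicate 1 and 0.000385 in replicate 2. A weak replicate 1 peak could therefore not be paired with a much larger q-value. Median widths were 311 bp for the replicate 1 peaks and 381.5 bp for their partners, and 207 pairs (87.7%) were wider in replicate 2. In 172 pairs the replicate 1 peak lay wholly within that of replicate 2. Paired centres were a median of 19 bp apart. The depths that could bear on these differences are not in the lists, and their part in the result was not tested.

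The order of strength on II was partly shared by the replicates. Across the 256 replicate 1 peaks with a partner, the q-values had a Spearman's rho of 0.75, and across the one-to-one pairs of 0.82. Most of this agreement lay in the strong pairs. By replicate 1 rank, rho was 0.915 in the strongest 78 pairs, 0.373 in the middle 78 and 0.105 in the weakest 80. The replicate 1 log10 q-values spanned 31.3, 2.35 and 0.862 in these sets, so the weaker sets had a narrower range to order. The median log10 difference in q-value, replicate 2 minus replicate 1, was -6.27 in the strongest 78 pairs by replicate 1 rank and -1.99 in the weakest 80. The weakest pairs had the least room for a larger q-value in replicate 2, whose list on II ended at 0.000385. By position, the median difference was -2.08 for pairs in the low-coordinate segment of II, -3.91 in the central and -3.52 in the high-coordinate segment. The low-coordinate pairs were also weaker in replicate 1, with a median log10 q-value of -4.79, compared with -5.40 and -5.28.

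**Figure D5:**
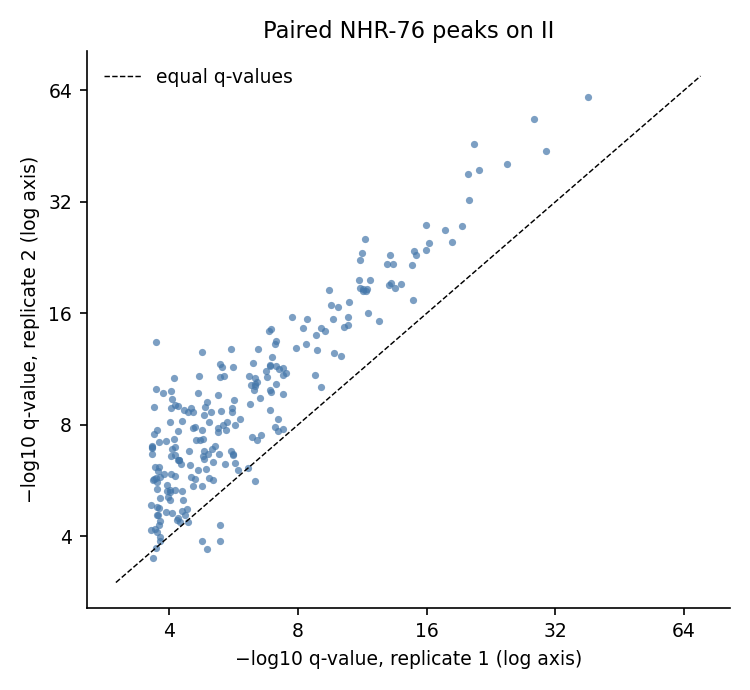
Each point is one of 236 pairs of overlapping peaks on II; the axes are −log10 of the q-value in replicate 1 and in replicate 2, both on a log scale, and the dashed line marks equal values. There are 228 points above the line, and the strongest sites are at the upper right.

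Some sites were found in one replicate only. The strongest replicate 2 peak on II with no replicate 1 overlap was at 4090827 to 4091856. This peak of 1030 bp had a q-value of 2.52e-12 and rank 78. The next were at 10388012 to 10388578 (q-value 1.05e-11) and 9132132 to 9132693 (q-value 2.05e-11). The median width was 212.5 bp for replicate 2 peaks without a counterpart and 388 bp for those with one. Of the 24 combined peaks of at least 1000 bp, 22 overlapped replicate 1, beside 43.3% of all combined peaks on II. Wide peaks offer more sequence to overlap. Across combined peaks on II, wider peaks also tended to have smaller q-values (Spearman's rho -0.67). The part of width and of q-value in the overlap was not tested.

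Replicate 2 missed 10 replicate 1 peaks on II. The share it did overlap, 96.2% on II, was close to the 96.5% of the whole replicate 1 list. The strongest of them lay at 3994527 to 3994976, was 450 bp wide and had a q-value of 3.13e-07, rank 95 of 266, and it was absent from the combined list too. The next, at 3081131 to 3081208 and 12058134 to 12058214, were 78 and 81 bp wide with q-values of 2.46e-05 and 3.31e-05. Close to the last of these, replicate 2 had a peak at 12058275 to 12058539 that did not overlap it. Median widths were 85.5 bp for the 10 and 326.5 bp for the 256 that replicate 2 held.

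In 8 one-to-one pairs the q-value was larger in replicate 2. The largest increase was at 7684665 to 7684967 in replicate 1, from 5.55e-06 to 0.000128, where the replicate 2 peak lay at 7684594 to 7684820. The others named by the same ranking began at 4993719 (1.26e-05 to 0.000197) and at 10689905 (5.56e-06 to 5.13e-05). These 3 peaks had ranks between 133 and 149 of 266 on II in replicate 1.

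The combined list on II was for the most part the replicate 2 list. Of its 568 peaks, 563 overlapped replicate 2 (99.1%, 95% CI 98.0 to 99.6), and 459 (80.8%) had the same start, end and q-value as a replicate 2 peak. None matched a replicate 1 peak in all 3 values, and 3 matched one in start and end. By overlap, 245 combined peaks were held by both replicates, 318 by replicate 2 alone, 1 by replicate 1 alone and 4 by neither. The identical peaks came in whole blocks. Of 16 stretches of 1000000 bp, 13 consisted of identical peaks alone, and the stretches starting at 8000000, 11000000 and 15000000 held 2, 1 and 0 identical peaks of 44, 49 and 19. For these 3, combined peaks were paired one to one with replicate 2 peaks. In the first and last, all pairs with different edges were narrower in replicate 2 (39 and 16 pairs), and in the middle one all were wider (48 pairs). The median differences in width, replicate 2 minus combined, were -12, 7 and -16 bp in the order given. Agreement between the combined and replicate 2 lists is therefore no replicate comparison on II.

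The peak held by replicate 1 alone was at 15203386 to 15203790, with a combined q-value of 1.39e-05. The strongest combined peak held by neither replicate, at 15266013 to 15266760, spanned 748 bp at a q-value of 5.45e-05. It is the last peak on II and sets the end of the span. The other 2 named by that rule were at 8000732 to 8000883 and 8844702 to 8844949, with q-values of 0.000186 and 0.000359. These 4 peaks lay in the stretches starting at 8000000 and 15000000, where the combined and replicate 2 lists differed.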

How the data were processed

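Per the file headers the authors' 3 deposited peak lists (replicate 1, replicate 2, combined) are in build WormBase WS180, and each line names PeakSeq as the caller. Beside the position, the only value the authors deposited for a peak is its q-value. Not given in the sources used here are the aligner, caller version, q-value threshold, use of the inputs and making of the combined list. The free-text sample descriptions disagree with the titles on which samples are inputs, so samples were grouped by title. Input read data were not analysed here.

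Peaks on II were ranked by q-value, then start. Overlap meant at least 1 bp. For pairs, the overlapping replicate 2 peak of smallest q-value was taken for each replicate 1 peak. The span between the outermost peaks of any list stood in for the chromosome length, and peaks were placed by their centres. Shares have 95% Wilson intervals, which cover counting error only. Peak counts were compared by two-sided Fisher's exact tests with Benjamini-Hochberg adjustment over 5 tests, or 6 with the outer-segment test added later. The 5 pairs of II with a single other chromosome, also added later, were adjusted separately within each list. Functions for overlap, neighbours and Fisher's test were tested on simulated data. Peaks named in the text are the 15 strongest combined peaks held by both replicates, and the 3 first by width, by q-value among unmatched peaks of each list, by increase of q-value, by window coverage and by gap length, and the groups of most neighbours. Other peaks in those windows, and the combined peak held by replicate 1 alone, were named after their values were seen. So were the group of 5 that begins with the first-ranked site and the lone peak at 1819963 to 1820242. The replicate 2 peak at 12058275 to 12058539 and the 2 supported peaks of the weakest decile were also named outside these rules. The regions, rules and tests were chosen with earlier results of these data known. The tools were scipy 1.17.1, pandas 2.3.3, numpy 2.4.6 and matplotlib 3.10.9 under Python 3.11.15.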

Additional observations from a re-analysis of the deposited data

How the results depend on the processing

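Overlap shares on II depended on the rule and on list length. With a reciprocal overlap of 50%, 77.4% of replicate 1 peaks overlapped replicate 2, 36.1% of replicate 2 peaks and 36.3% of combined peaks overlapped replicate 1, and 87.7% of the strongest decile did. With centres within 100 bp these were 79.3%, 36.9%, 37.0% and 75.4%. With lists of equal length the first 3 were 77.8%, 73.7% and 73.3%. In the better-scoring 50% of each list, 98.5% of replicate 1 peaks overlapped replicate 2. The cause was not tested. Spearman's rho rose to 0.82 both across one-to-one pairs and among the better-scoring 50% of replicate 1 peaks, where 98.4% of pairs had the smaller q-value in replicate 2. Counted only within each subset, the share with a neighbour was 18.4% for sites found in each replicate and 21.8% in the better-scoring 50%. These subsets leave out possible neighbours by construction. In the full combined list, 29.8% of the sites found in each replicate had a neighbour, beside 22.3% of those held by replicate 2 alone. The share over all combined peaks was 14.8% within 500 bp and 36.8% within 2000 bp. Density was 16.1 peaks per Mb among peaks held by both replicates and 18.6 in the better-scoring 50%, which hold fewer peaks by construction, and median widths there were 388 and 407.5 bp. Leaving out a replicate, by using the other's list, gave 21.8 to 25.4% with a neighbour, 39.5 to 39.6% in the central segment, 17.45 to 37.5 peaks per Mb and median widths of 282 to 316.5 bp. Differences of II from other chromosomes then ran from 1.37 to 4.06 percentage points for neighbours, from -2.14 to -1.28 for the central segment, from -1.75 to 0.317 for peaks under 50 bp and from -18.5 to -17.0 for the outer segments. The difference in support by replicate 1 was 3.49 points with replicate 2 peaks in place of combined ones. Between the centre and the outer segments of II the difference in support, -1.07 points, became 3.10 in the better-scoring 50% (Fisher's exact test, adjusted p = 0.593). None of the 5 tests chosen first passed under an alternative. These tests too were chosen with earlier results of these data known. The outer-segment difference, with peaks counted as independent, passed under all 6 of its alternatives, which were added after the data were seen. No paired analysis was possible because the lists cover a single group, ChIP, and pairing by replicate number needs a second one. Unknown depth limits what list lengths, and sites found in one replicate, can show.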

Other observations

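Very narrow peaks made up a small part of the sites on II. There were 36 combined peaks under 50 bp (6.34%, 95% CI 4.61 to 8.65), with a median width of 18 bp. Of the 36, 1 overlapped replicate 1, beside 43.3% of all combined peaks on II. The strongest of the 36 ranked 242 on II, in the fifth decile, where 31.6% of peaks overlapped replicate 1. They were thus among the weaker peaks, and they offer little sequence to overlap. The part of each was not tested. On the other chromosomes 8.09% of combined peaks were this narrow (two-sided Fisher's exact test of the difference, adjusted p = 0.433). Replicate 1 held 7 such peaks on II, or 2.63%.

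Edges of paired peaks sometimes coincided exactly. Of the 236 one-to-one pairs on II, 18 had the same start in both replicates, 15 the same end and 3 both. The 2 supported peaks of the weakest combined decile lay at 4993897 to 4993989 and 6061568 to 6061810, with q-values of 0.000197 and 0.00032.

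Among the 50 strongest combined peaks of the genome, 10 were on II (20.0%), and among the 500 strongest 85 were (17.0%), beside 15.6% of all combined peaks. In replicate 1, 8 of the 50 and 92 of the 500 strongest were on II, beside 17.0% of all its peaks. These shares are given without a test.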
